A study of Mus musculus with 211 samples.

Results

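The primary granule genes Elane, Mpo, Prtn3, Ctsg and Ms4a3 were described across 211 single cells of the adult mouse cochlea. All 5 were found by Ensembl identifier among the 48709 genes of the count table. They had been chosen by their counts in these same cells, where they stood out in a minority of cells, so their levels, their co-detection and their order across cells are given as a description, with no test. The study asked how diverse the supporting cells of the adult organ of Corti are. Cochleae of CD1 mice that carry the Lfng-EGFP transgene, which puts GFP under control of Lfng regulatory sequence, were dissociated, GFP-positive cells were sorted, and single cells were captured and amplified as full-length cDNA on Fluidigm C1 chips. Cells with endothelial transcripts had been removed by the authors. The strain, the transgene, the sort and the absence of any treatment were common to all cells, and the labels set the groups apart by age; the sequencing run also differed, as given below. The younger group, P60, had 8 captures, with 55 cells in the sequencing run S047 and 47 in the S059 runs. The older, P120, had 4 captures, 28, 32, 36 and 38, with 37, 27, 16 and 29 cells, all in the S059 runs. Since the cochleae of several mice went into each capture, the capture is the replicate here.

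Primary (azurophil) granules are the first granules that a developing neutrophil builds, at the promyelocyte stage in bone marrow. Their serine proteases and myeloperoxidase are transcribed strongly for a short time and shut off before the proteins of the later specific granules, such as Ngp, Camp and Ltf, are made, while the finished enzymes stay in the mature cell as protein. Basophil precursors share part of the programme and make their own proteases, Mcpt8 and Prss34. None of these genes is known as a marker of cochlear supporting cells.

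Elane encodes neutrophil elastase, Prtn3 proteinase 3 and Ctsg cathepsin G, all serine proteases of the granule. Mpo encodes myeloperoxidase, the haem enzyme that makes hypochlorous acid. Ms4a3 encodes a membrane protein with several spans that is found in granulocyte and monocyte precursors and is not an enzyme. In the GRCm38 annotation Prtn3 (ENSMUSG00000057729) lies on the plus strand of chr10:79874476-79883174, and Elane (ENSMUSG00000020125) starts 3073 bases further on, at chr10:79886247-79888215, on the same strand. Mpo (ENSMUSG00000009350) is at chr11:87793581-87804413 on the plus strand, Ctsg (ENSMUSG00000040314) at chr14:56099881-56102574 on the minus strand and Ms4a3 (ENSMUSG00000024681) at chr19:11629496-11640851 on the minus strand. An exon of Prtn3 overlaps Plppr3, and an exon of Mpo overlaps Gm11505, each on the opposite strand. Whether the counting used strand is not given in the sources used here, so reads in those overlaps cannot be told apart.

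The stretches before the start sites are shown because the 5 genes were high in the same cells. RefSeq promoter windows (GRCm38.p6) were found for all 5, and the 250 bases before each start were searched on both strands. The 7 letters AGGAAGT, a core recognised by ETS factors such as PU.1, were present in 4 of 5, against 7.69% of all 32851 promoters. Each stretch of 60 bases below has that core in capitals and reads 5′ to 3′ toward the gene.
Elane, chr10:79886202-79886261, plus strand: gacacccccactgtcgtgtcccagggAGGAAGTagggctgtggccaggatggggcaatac
Prtn3, chr10:79879547-79879606, plus strand: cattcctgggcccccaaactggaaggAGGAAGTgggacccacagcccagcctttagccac
Mpo, chr11:87793535-87793594, plus strand: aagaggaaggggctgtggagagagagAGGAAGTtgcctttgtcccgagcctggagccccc
Ctsg, chr14:56102747-56102806, minus strand: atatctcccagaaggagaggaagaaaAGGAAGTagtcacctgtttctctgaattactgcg
The RefSeq start lies 65 bases inside the annotated gene in Elane, 203 in Mpo and 5191 in Prtn3, and at its start in Ctsg, so the stretch shown lies within the annotated gene for Prtn3 and spans its start for Elane and Mpo. The core began 84 bases before the RefSeq start in Elane, 94 in Prtn3, 206 in Ctsg and 223 in Mpo, and those letters were not in the Ms4a3 window. The neighbours Elane and Prtn3 also held TATAAG, beginning 31 and 32 bases before their starts, a string present in 6.65% of promoters. AACNG, the short MYB core, was in 4 of 5 windows and in 74.2% of all promoters, and TTGCNNAA, a C/EBP core, was in 0 of 5 and in 9.56% of all. These matches describe the letters and were not tested as binding sites.

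Between 41 and 5361476 reads fell on genes in a cell; the median was 735206 for the P60 cells and 772653 for the P120 cells, and 47 cells held fewer than 50000. The counts are reads and not molecules. Intervals and floors below treat cells as independent, so they cover counting error alone and not the spread between captures and runs. The labelled cell type was checked against its markers: at least 3 of 14 supporting cell genes reached 100 reads in 0 of 40 cells that held a granule gene at 100 reads (which allows a share of up to 7.5%) and in 2 of the 124 other cells with at least 50000 reads. At least 3 of 7 general leukocyte genes did so in 38 of 40 and in 85.5% of those 124. Cell names are therefore given below by the genes measured.

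The reads of all 5 genes were concentrated in few cells. At the study's background cutoff of 10 reads, Elane was positive in 56 of 211 cells (26.5%, exact 95% interval 20.7 to 33), Mpo in 55, Ms4a3 in 46, Ctsg in 34 and Prtn3 in 27. Any of the 5 was positive in 74 cells and all 5 in 19. The 10 cells with most reads held 80.3% of all Elane reads, 76.5% of Prtn3, 73.9% of Mpo, 69% of Ctsg and 63.4% of Ms4a3. Elane alone reached 4.92% of the reads of a cell, Mpo 3.01%, Prtn3 0.898%, Ms4a3 0.497% and Ctsg 0.352%.

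**Figure D1:**
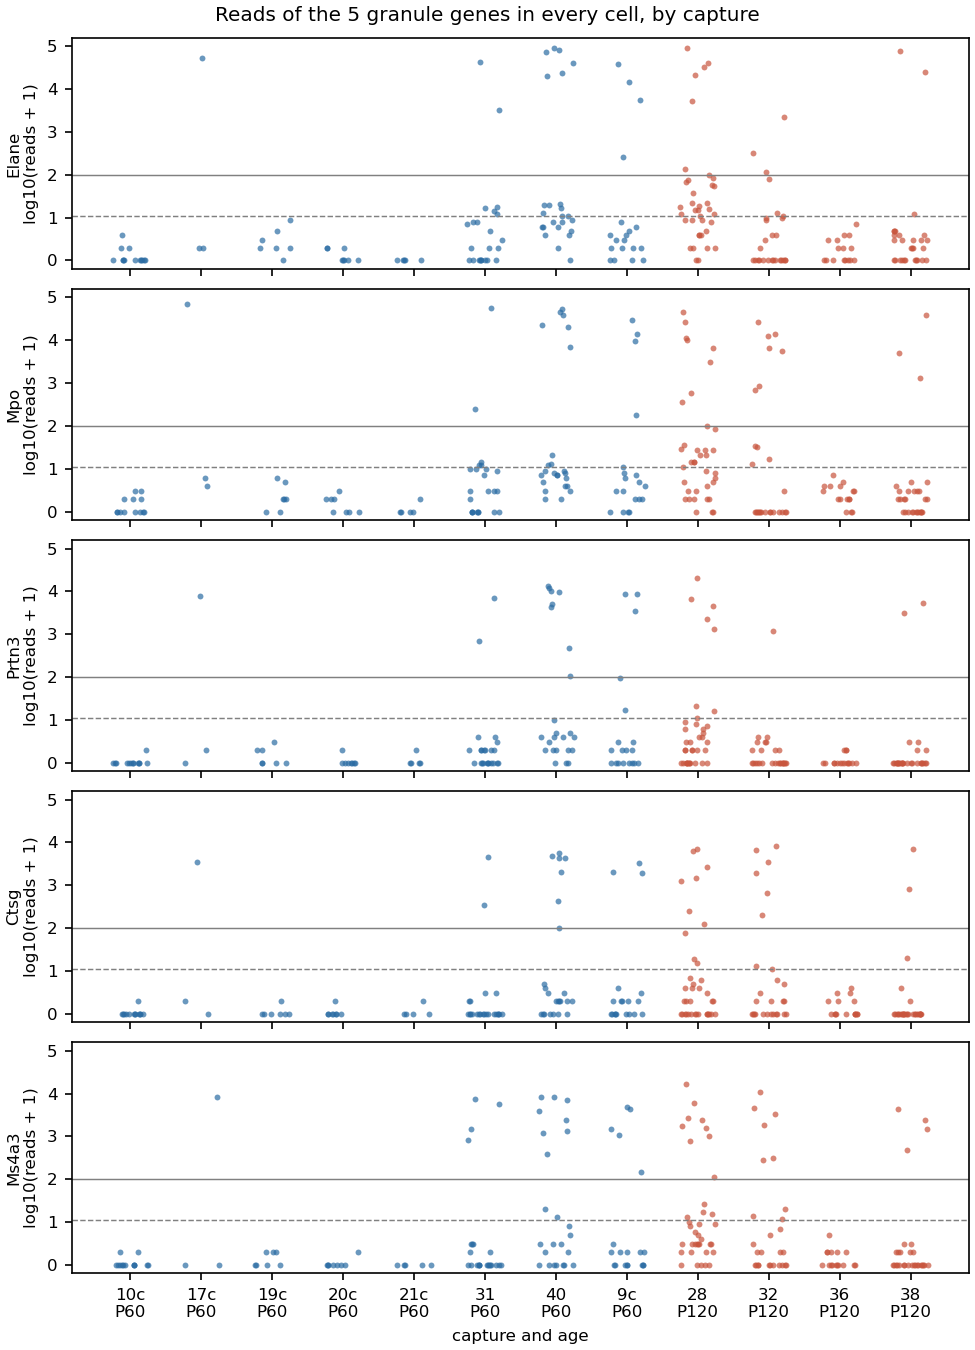
Reads of each granule gene in every cell, as log10(reads + 1), in columns by capture and age (blue P60, red P120); the dashed line marks 10 reads and the solid line 100 reads. A few cells per capture stand above 1000 reads, a lower band of 1 to 99 reads accompanies them most clearly for Elane and Mpo, and 5 captures have no cell above the solid line.

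Low counts accompanied high ones. All 32 cells with 10 to 99 reads of Elane shared both capture and sequencing run with a cell at 100 reads or more, as did 23 of 24 such cells for Mpo, 5 of 5 for Prtn3, 6 of 7 for Ctsg and 8 of 9 for Ms4a3. Where a capture and run held a high cell, the median of the cells below 100 reads was 7 reads for Elane and 5 for Mpo. In the 100 cells of captures and runs without one, that median was 0 for every gene, and the highest value was 16 reads, for Mpo. The part of spill-over between libraries in these low counts was not tested. The description of single cells therefore uses 100 reads, at which the cells below the cutoff held between 0.147% (Elane) and 0.401% (Ctsg) of the reads of a gene. The choice changed the order of the genes by number of cells: at 100 reads Ms4a3 came first with 37 cells, followed by Mpo with 31, Ctsg with 27, Elane with 24 and Prtn3 with 22.

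Levels were compared between genes per kilobase of merged exon. Over the cells at 100 reads or more, the median level was 15411 CPM per kilobase for Elane, 2244 for Mpo, 1860 for Prtn3, 1818 for Ctsg and 804 for Ms4a3. Elane was first by every measure tried. Mpo, Prtn3 and Ctsg followed in an order that depended on the measure, since with the longest transcript as length the medians were 3143 for Prtn3, 2794 for Mpo and 1874 for Ctsg. Ms4a3, lowest of the 5 here, was thus the gene detected in most cells at 100 reads.

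Of the 40 cells with at least 100 reads of any of the 5, 17 held all 5, of which 11 were from P60 and 6 from P120. Ms4a3 alone was found in 6 cells, Mpo with Ctsg and Ms4a3 in 5, all but Prtn3 in 3, all but Ctsg in 3, Mpo with Ctsg in 2, Prtn3 with Ms4a3 in 2, Mpo with Ms4a3 in 1 and Elane alone in 1. The cell with most granule reads, from capture 28 at P120, had 92762 reads of Elane, 45767 of Mpo, 20433 of Prtn3, 6924 of Ctsg and 16703 of Ms4a3. In a cell of capture 40 at P60 the 5 genes together took 8.52% of all reads. Elane was high in all 17 of these cells, between 3260 and 92762 reads.

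The cells that held only some of the 5 separated by Mcpt8, the gene of a basophil protease. In 12 cells Mcpt8 had at least 1000 reads, 11 of them at 8715 or more and 1 at 1010, while no other cell passed 158; this split was chosen after the values were seen. Of the 12, 11 were from P120 and 1 from capture 9c of P60. In these cells Mpo ranged from 98 to 27132 reads (median 2180.5) and reached 100 in 11 of 12, and Ctsg ranged from 19 to 8381 (median 1562.5) and reached 100 in 10 of 12. Elane ranged from 1 to 318 reads (median 10.5), and Prtn3 from 0 to 96 (median 1), with 0 of 12 cells at 100 reads, which allows a share of up to 25%. Ms4a3 reached 100 reads in 9 of 12 cells, with up to 4569. The 2 neighbouring genes of chromosome 10 were thus the ones that stayed low where Mcpt8 was high. The ranges of Mpo and Ctsg overlapped with those of the 17 cells that held all 5, but the medians were lower. They were 1370 against 17034 CPM for Mpo and 1211 against 2402 CPM for Ctsg.

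**Figure D2:**
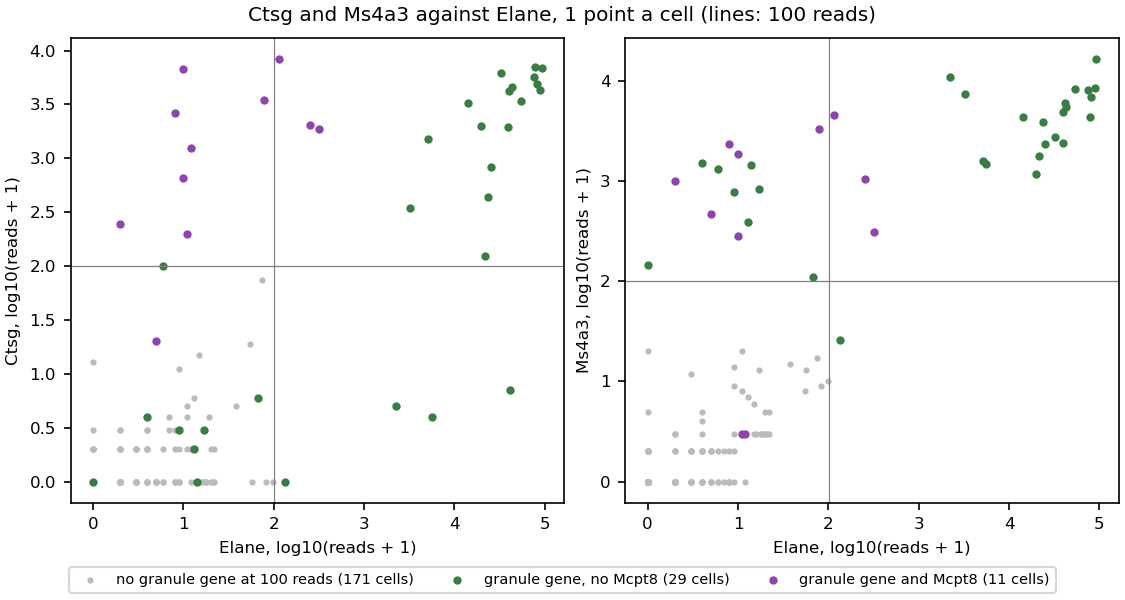
Ctsg (left) and Ms4a3 (right) against Elane, as log10(reads + 1), 1 point a cell, with lines at 100 reads; green cells hold a granule gene without Mcpt8, purple cells hold a granule gene and Mcpt8 at 1000 reads or more, and grey cells have no granule gene at 100 reads. Most purple cells lie at high Ctsg and low Elane, the green cells of high Ctsg are at high Elane as well, and a row of green cells at high Ms4a3 has almost no Elane.

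Among the 29 cells with a granule gene and without Mcpt8, the 5 genes were largely nested at 100 reads. Every one of the 17 cells with Ctsg at 100 reads also had Elane, Mpo, Prtn3 and Ms4a3. Ctsg was missing in 4 of 21 cells with Elane, in 3 of 20 with Mpo and in 5 of 22 with Prtn3. Of the 4, the cell with Elane alone had 133 reads of it. In its capture and run the cells below 100 reads reached 98. Ms4a3, in contrast to Ctsg, was present in 28 of the 29 and was found without Ctsg in 11 cells, without Elane in 8, without Mpo in 8 and without Prtn3 in 6. At 100 CPM in place of 100 reads, 1 of 16 Ctsg cells lacked Mpo and 0 lacked Elane, Prtn3 or Ms4a3, and Ms4a3 was found without Ctsg in 12 of 28 cells. After thinning every cell to 50000 reads, with a cutoff of 10, none of 15 Ctsg cells lacked another member, and 11 of 26 Ms4a3 cells lacked Ctsg. Outside the Mcpt8 cells, Ctsg was thus found in the fewest cells of the 5 genes and Ms4a3 in the most under each of these 3 measures. At 10 reads over all cells without Mcpt8 the nesting was looser: of 22 Ctsg cells 3 lacked Elane, 1 lacked Mpo, 3 lacked Prtn3 and 3 lacked Ms4a3. Ctsg was again in the fewest cells, but Elane, in 49, was in more than Ms4a3, in 36.

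The nesting followed Ngp, the specific granule gene with most reads in these cells. Among the 29 cells, Ngp was under 0.1% of reads in 9, and in all 9 each of the 5 genes passed 100 reads, with medians of 39966 reads for Elane, 26739 for Mpo, 8581 for Prtn3, 4344 for Ctsg and 4336 for Ms4a3. With Ngp between 0.1 and 3%, Elane passed in 7 of 8 cells, Ms4a3 in 7, Mpo in 6, Prtn3 in 6 and Ctsg in 5. With Ngp above 3%, Ms4a3 passed in 12 of 12 cells, Prtn3 in 7, Elane in 5, Mpo in 5 and Ctsg in 3, and the medians were 1482.5 reads for Ms4a3, 291.5 for Prtn3, 14.5 for Elane, 9 for Mpo and 3 for Ctsg. In all, 47 cells had Ngp above 3% of their reads, and the other 35 had no granule gene at 100 reads. The bounds of these Ngp ranges were chosen after the values were seen, and the cells have no time order of their own, so the ranges give an order along Ngp and not along time.

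Single cells differed in which of the 5 genes were high. A cell of capture 28 had 41811 reads of Elane, 10038 of Mpo, 2262 of Prtn3 and 6101 of Ms4a3 but 6 of Ctsg, at 2.39% Ngp. A cell of capture 32 had 2240 of Elane, 5698 of Mpo, 1168 of Prtn3 and 10938 of Ms4a3 with 4 of Ctsg, at 12.4% Ngp. A cell of capture 9c had 5628 of Elane, 3400 of Prtn3 and 1502 of Ms4a3 with 181 of Mpo and 3 of Ctsg, at 7.53% Ngp. In these 3 cells, from 3 captures and both ages, Ctsg was near 0 while Elane and Prtn3 each had over 1000 reads. At higher Ngp, a cell of capture 40 had 478 reads of Prtn3 and 391 of Ms4a3, with 12 of Elane and 1 of Mpo, at 15.4% Ngp. Another of the same capture, at 13.7% Ngp, had 1319 reads of Ms4a3, with 5 of Elane and 5 of Mpo. Its Prtn3 was just above the cutoff and its Ctsg just below, at 99 reads. In that cell Ctsg was not the lower gene, unlike in the 3 cells above. A cell of capture 38 with 14.7% Ngp held 1515 reads of Ms4a3 beside 3 of Elane, 4 of Mpo, 0 of Prtn3 and 3 of Ctsg. Over the 29 cells, Spearman's rho of CPM with Ngp was -0.82 for Ctsg, -0.79 for Prtn3, -0.77 for Mpo, -0.75 for Elane and -0.59 for Ms4a3. These are values over cells of shared captures and runs, and shares of one total, and carry no test.

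**Figure D3:**
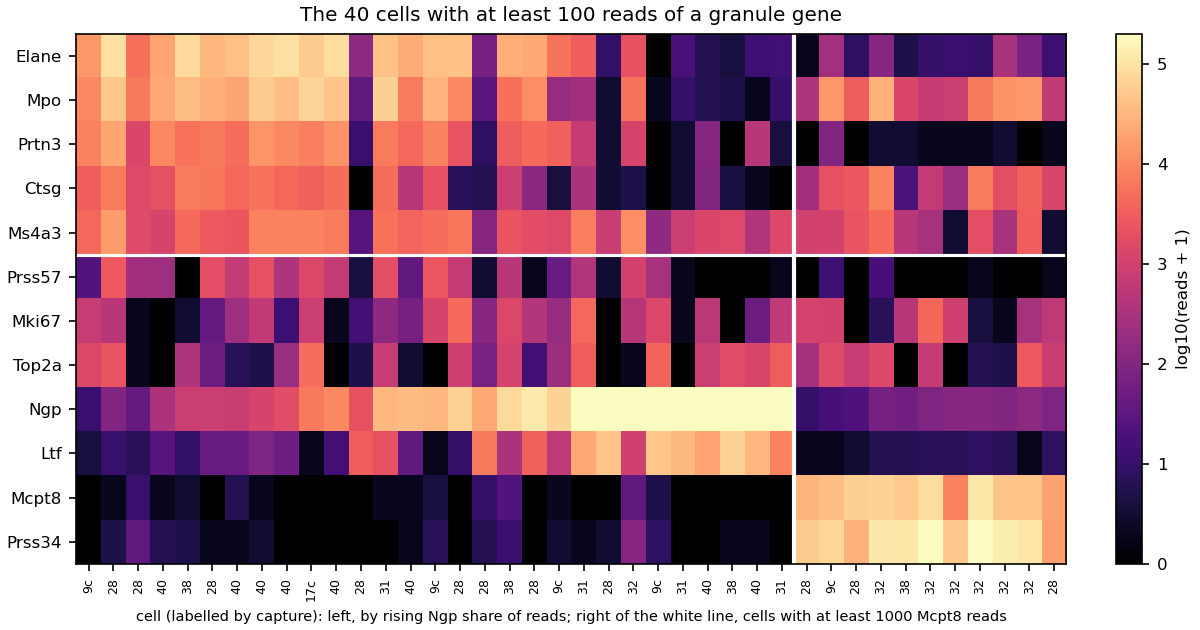
Heat map of log10(reads + 1) in the 40 cells with at least 100 reads of a granule gene: 29 cells without Mcpt8 in order of rising Ngp share, then, right of the white line, 11 cells with Mcpt8; each column is labelled with its capture. The upper 5 rows are bright on the left, Ms4a3 stays bright furthest to the right where Ngp is highest, and on the Mcpt8 side Mpo and Ctsg are bright with Elane and Prtn3 dark.

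Over the 164 cells with at least 50000 reads, Pearson's r of log2(CPM + 1) between the 10 pairs ran from 0.72 (Prtn3 and Ctsg) to 0.93 (Elane and Prtn3), with Mpo and Ctsg at 0.91. Thinned to equal depth the range was 0.69 to 0.88. At P120, which holds 11 of the 12 Mcpt8 cells, r was 0.53 for Prtn3 with Ctsg and 0.59 for Elane with Ctsg. At P60 these pairs had 0.91 and 0.92. Over both ages they had 0.72 and 0.76, and 0.89 and 0.87 without the Mcpt8 cells. Single captures moved them too: they came to 0.83 and 0.82 without capture 32, 0.74 and 0.82 without capture 28 and 0.64 and 0.69 without capture 40. The parts of age and of single captures were not tested. Mcpt8 itself correlated with Ctsg at 0.52 and with Mpo at 0.46, but with Elane at 0.08 and with Prtn3 at -0.04. These points share captures, runs and a skewed spread of depth, and no p is given.

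Of 6604 other genes with at least 10 reads in at least 10 of the 164 cells, the one most like the 5 by mean Pearson's r was Nkg7 (0.81), a granule membrane protein of killer lymphocytes that other granulated cells also make. Next came Gstm1 (0.78), a glutathione transferase, Cst7 (0.78), the cathepsin inhibitor cystatin F, and Prss57 (0.75), another serine protease of primary granules. Rpl36al (0.74), Gatm (0.73), Ramp1 (0.73), Rpl22 (0.72), Cdk6 (0.71) and Rps2 (0.71) completed the first 10, of which Rpl36al, Rpl22 and Rps2 encode ribosomal proteins and Cdk6 a kinase of the G1 phase. Nkg7 stood on the list of T and NK cell markers, of which it was the only one of 5 to reach 100 reads in any of the 40 cells. Prss57 followed Elane (r 0.82) and Prtn3 (0.83) more closely than Mpo (0.72) or Ctsg (0.64). At the other end, Retnlg, a gene of late neutrophils, had the lowest mean r of all 6604 (-0.45).

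The other genes of the programme were read from fixed lists. Of the primary granule partners, Srgn, the proteoglycan that packs granule proteases, had a pooled level of 4445 CPM in the 17 cells with both Elane and Ctsg and without Mcpt8, 1274 in the 4 with Elane but not Ctsg, 186 in the 8 with Ms4a3 but not Elane and 3428 in the Mcpt8 cells, against 2998 in the 170 cells without a granule gene or Mcpt8. Serpinb1a, the inhibitor of elastase, proteinase 3 and cathepsin G, had 2794, 3083, 1308, 939 and 462 CPM in the same order. Hspa5, a chaperone of the endoplasmic reticulum, had 1216, 347, 382, 3540 and 411 CPM. Serpinb1a was thus higher in every class with a granule gene than in the cells without, whereas Srgn was not. Of the early regulators, Myb, a factor of immature blood cells, had 486, 63, 7, 185 and 32 CPM in that order, and Runx1, a factor that acts on many granulocyte genes, had 239, 1, 115, 1159 and 128 CPM. Myb was highest in the class that held all 5 granule genes, and Runx1 in the Mcpt8 cells. These classes were cut from the counts of the same cells, and the differences carry no test.

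Cycling genes were found more often in cells with a granule gene. Mki67, a protein of the chromosome surface in dividing cells, or Top2a, the topoisomerase of S to M phase, reached 10 reads in 49 of the 74 cells with at least 10 reads of any of the 5 (66.2%, exact 95% interval 54.3 to 76.8) and in 13 of the 137 other cells (9.49%, 5.15 to 15.7). At 100 reads for both, the shares were 30 of 40 (75%) and 23 of 171 (13.5%). With only Mki67 and Top2a thinned to equal depth, 34 of the 40 cells chosen at 100 reads had at least 1 read of either (85%, 70.2 to 94.3). Of 124 others, 28 did (22.6%, 15.6 to 31). With the granule genes thinned as well, the shares at 10 reads for both were 26 of the 40 cells then picked (65%) and 21 of 124 (16.9%). At 1 read for both they were 48 of 80 (60%) and 14 of 84 (16.7%). The share at 100 reads was higher in the granule cells in 7 of the 7 captures that held both kinds.

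Cells with a granule gene were deeper and held more genes, and their GFP was dimmer. Their median was 1855466.5 reads against 566403, and they were the deeper cells in 6 of 7 captures. A class cut at 100 reads can hardly take in shallow cells, so part of this difference was set by the cutoff. All 40 granule cells had at least 50000 reads, as did 124 of the 171 others. Over those 164 cells, Spearman's rho with reads was 0.09 for Elane and Mpo, 0.12 for Prtn3, 0.19 for Ctsg and 0.26 for Ms4a3. At 50000 reads each, the granule cells had a median of 2484 genes against 865.5 in the others. Their normalised GFP intensity from the capture images had a median of 198 against 384, and was lower in 6 of 7 captures. The parts of depth and of gene number in the cycling shares were not tested beyond thinning.

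Among cells that held a granule gene, no difference in cycling was detectable between those with all 5 genes and those with some. Mki67 or Top2a reached 100 reads in 12 of the 17 cells with all 5 genes (70.6%, 44 to 89.7), in 9 of the 12 with some of them (75%, 42.8 to 94.5) and in 9 of the 12 Mcpt8 cells (75%), intervals that overlap widely. Among cells with Ngp above 3%, 10 of 12 with a granule gene cycled by that measure (83.3%, 51.6 to 97.9) and 13 of the 35 without one (37.1%, 21.5 to 55.1), at median depths of 2199442 and 1181417 reads, so the share was lower in the Ngp-high cells without a granule gene, which were also shallower. Of the 23 cycling cells without a granule gene, 13 had Ngp above 3%. Within the 29 granule cells without Mcpt8, Spearman's rho of CPM with Mki67 lay between -0.06 (Ctsg) and 0.18 (Ms4a3), and with Top2a between -0.22 (Mpo) and -0.04 (Ms4a3). By likeness over 164 cells, Mki67 ranked 1592 and Top2a 1715 of 6604 genes, with mean r of 0.37 each.

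**Figure D4:**
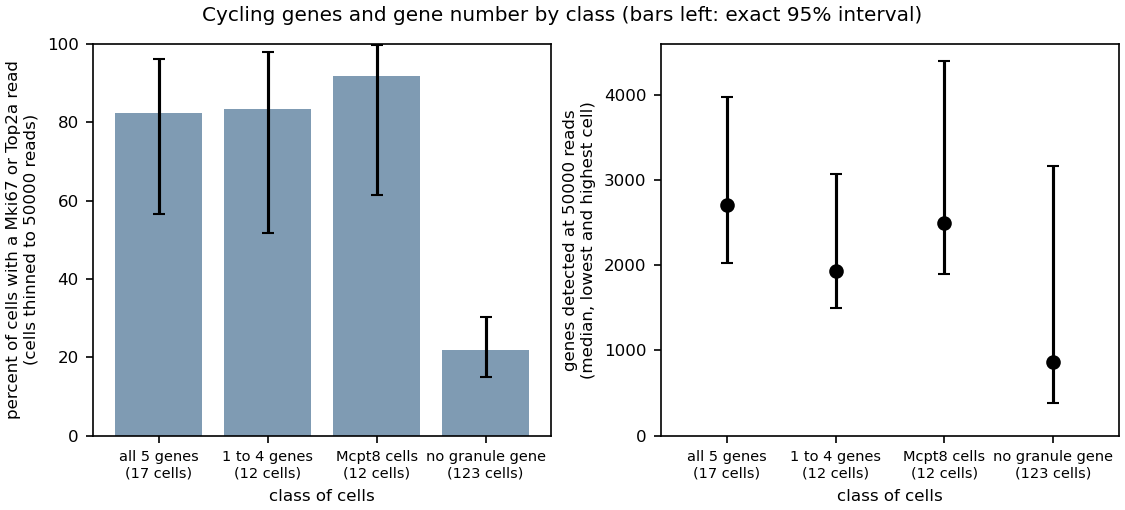
Left, percent of cells with at least 1 read of Mki67 or Top2a after thinning to 50000 reads, with exact 95% intervals; right, genes detected at that depth (median, lowest and highest cell). The 3 classes with granule genes or Mcpt8 lie between 82.4% and 91.7%, above the 22% of the 123 cells with neither, and their medians of 1928.5 to 2703 genes lie above 865.

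The cells were spread unevenly over captures. Captures 9c, 17c, 31 and 40 of P60 and 28, 32 and 38 of P120 held all 40 granule cells, with 11 in capture 28, 8 in 40, 7 in 32, 5 in 9c, 4 in 31, 4 in 38 and 1 in 17c. The 5 captures 10c, 19c, 20c, 21c and 36 held none among 49 cells. Of those 49, 31 had 50000 reads or more, and 0 of 31 allows a share of up to 9.68%. The median GFP intensity in these captures was 460. Capture 32 differed from the others in kind: its pooled CPM was 2030 for Mpo and 642 for Ctsg but 84.1 for Elane and 35.5 for Prtn3. All but 1 of its 7 granule cells were among the Mcpt8 cells.

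The comparison of ages asked whether the 5 genes changed between P60 and P120. Elane ranged over the 8 P60 captures from 0 to 16405 CPM (median 703) and was 4395, 84.1, 2.08 and 3967 CPM in captures 28, 32, 36 and 38 of P120. Mpo ranged from 0.214 to 20868 CPM (median 885) at P60 and was 2369, 2030, 3.29 and 1730 at P120. Prtn3 ranged from 0.147 to 2324 CPM (median 116) at P60 and was 796, 35.5, 0.329 and 325 at P120. For these genes every P120 value lay within the P60 range. Ctsg ranged from 0.147 to 1026 CPM (median 77.5) at P60 and was 430, 642, 1.10 and 300.1 at P120. Ms4a3 ranged from 0 to 2488 CPM (median 234) at P60 and was 753, 640, 0.986 and 336 at P120. The ages overlapped for all 5 genes, and the highest value of each was from capture 17c of P60, which consists of 3 cells, 1 of them a granule cell.

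None of the 5 passed the test between ages. In edgeR's quasi-likelihood test on reads summed per capture, the log2 difference (P120 over P60) was -0.56 ± 1.33 (SE) for Elane, -1.10 ± 1.37 for Mpo, -1.07 ± 1.52 for Prtn3, 0.42 ± 1.52 for Ctsg and -0.31 ± 1.47 for Ms4a3, each with a Benjamini-Hochberg adjusted p of 1.0 over 8346 genes. Unadjusted p-values under 0.05 were found for 0 of 5 in edgeR and for 0 of 5 in DESeq2. Over all genes tested, 10 passed (0.12%), 5 in each direction, and the median log2 difference was 0.26. The direction of Ctsg turned under DESeq2's size factors, to -0.0066, with which the median of all genes moved to -0.10. Without capture 17c, Elane came to 0.20, Mpo to 0.05 and Ms4a3 to 0.40, and without capture 36 Ms4a3 came to 0.13. With errors of this size, even large differences were not detectable. In sums over a capture, fewer granule cells and less RNA per granule cell cannot be told apart.

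**Figure D5:**
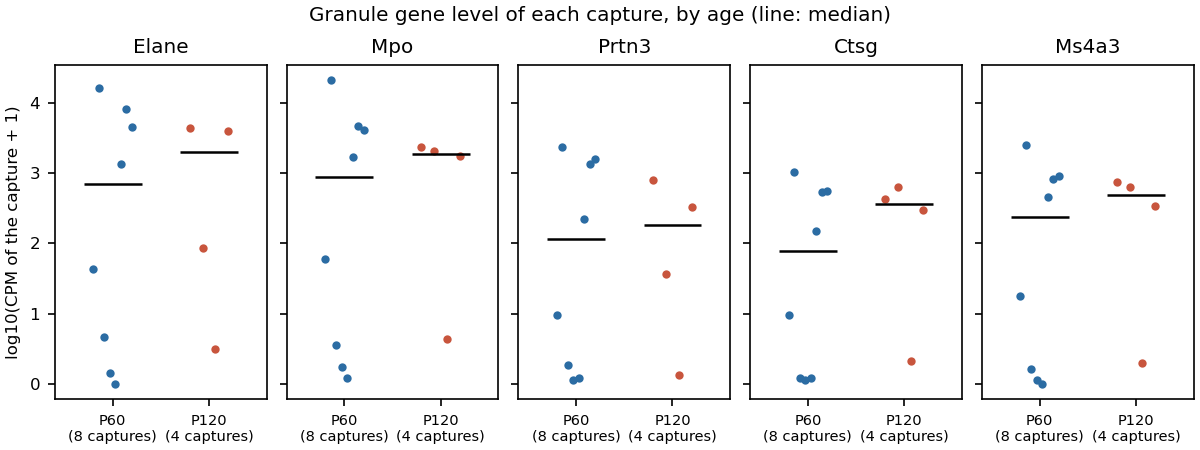
Level of each gene in each capture, as log10(CPM + 1) of the reads summed over its cells, for 8 captures at P60 and 4 at P120; the line is the median. Within each age the captures spread over several orders of magnitude, and the ages overlap for all 5 genes.

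The sequencing runs did not hold the ages evenly. The run S047 held 55 cells of P60 and none of P120, with a granule gene in 6 (10.9%, 4.11 to 22.2). In the S059 runs, which held both ages, 12 of 47 P60 cells (25.5%, 13.9 to 40.3) and 22 P120 cells (20.2%, 13.1 to 28.9) had one. With the Mcpt8 cells left out, 12 of 98 P120 cells (12.2%) had a granule gene, against the same 12 of 47 at P60. Within the S059 runs the log2 differences were -1.17 ± 1.21 for Elane, -1.19 ± 1.18 for Mpo, -1.58 ± 1.49 for Prtn3, -0.15 ± 1.55 for Ctsg and -0.78 ± 1.44 for Ms4a3, again with adjusted p of 1.0. Only 2 captures of P60 enter that comparison.

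The lists around the 5 genes gave no called difference between ages either. Of 10 primary granule partners 0 were called (median log2 difference 0.30), of 6 early regulators 0 (-0.04), of 12 cycling genes 0 (0.75) and of 8 specific granule genes 0 (-0.13), beside a median of 0.26 over all genes. The 7 basophil genes were all higher at P120, with a median of 3.59, and 5 had an unadjusted p under 0.05, as 443 of all 8346 genes did (5.31%), but the smallest adjusted p was 0.14 (edgeR, Benjamini-Hochberg). The 11 P120 cells with Mcpt8 described above were among the cells summed, and their part in the difference of the basophil genes was not tested. The part of capture 32, where Mpo and Ctsg were high relative to Elane and Prtn3, was not tested for these genes either. Of the 14 supporting cell genes 5 were tested and 0 were called, with a median of -2.90, lower at P120. Of these, 2, Tectb and Slc1a3, had an unadjusted p under 0.05, and the smallest adjusted p was 0.053 (edgeR, Benjamini-Hochberg). Each of the 2 reached 100 reads in only 2 of the 170 cells without a granule gene or Mcpt8, at up to 20113 and 6910 reads. Lfng was the 1 gene higher at P120 (0.32). The part of those few cells in the median was not tested.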

How the data were processed

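Full-length cDNA of single GFP-sorted cells was sequenced without molecular identifiers. Per the paper, the authors aligned reads to GRCm38 (GENCODE vM11) with STAR and deposited raw read counts per gene and cell; spike-in entries were left out of totals. A second deposited table listed, for every cell, its age, its capture, the run it was sequenced in and a GFP score, which is the authors' normalised intensity from capture images. Gene symbols, lengths and positions came from GENCODE vM21 on GRCm38, with 48349 of 48709 genes matched, and promoter windows from RefSeq (GRCm38.p6). Depth was 41 to 5361476 reads per cell. Doublets had been gated by scatter at the sort and no caller was run.

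Counts were summed per capture and compared between ages with edgeR 4.0.16 (R 4.3.3; TMM, filterByExpr, quasi-likelihood test, adjusted p under 0.05), with DESeq2 1.42.0 as an alternative; the edgeR test was tested on simulated data, where it recovered changes at a small spread but none at the spread between these captures; DESeq2 was not tested so. Nothing says that captures were independent beyond their pooled mice, so p-values measure the spread between captures. Values over cells were computed in Python 3.11.15 (pandas 2.3.3, scipy 1.17.1), with 10 reads as positive, 100 as the alternative, exact (Clopper-Pearson) 95% intervals, a floor of 3 counts, and thinning of 164 cells to 50000 reads. CPM stands for counts per 1000000 reads on genes; 1 was added before logs.

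The 5 genes and the gene lists were chosen with earlier results of these data known. The genes named are the 5, Mki67 and Top2a, the list genes of highest pooled level (none passed the age test) and the 10 genes most like the 5; Mcpt8, Prss34, Ngp, Retnlg, Myb, Runx1 and the single cells were singled out after their values were seen. Mcpt8 and Ngp divisions and the leaving out of Mcpt8 cells were added after seeing the data. Lists of monocyte, hair cell, erythroid, B cell and endothelial markers were read in the 40 granule cells: 5 of 8, 1 of 7, 1 of 6, 0 of 6 and 3 of 7 of their genes reached 100 reads in any cell, and 3 or more did so together in 0 of 40.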

Additional observations from a re-analysis of the deposited data

Results flagged for a closer look

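Among the 20 sets of captures examined (5 genes, 2 ages, level and share of cells), 2 were marked because the highest capture stood far from the rest. A chance rate of about 1 in 20 assumes separate sets of normal spread. These sets share cells, and their levels span several orders of magnitude, so no chance rate is given. Both were capture 17c at P60, which holds 3 cells. Mpo was 20868 CPM there, against 4666 in the next P60 capture, a gap of 0.776 of the whole range. Ms4a3 was 2488 CPM, against 906 in the next, a gap of 0.636 of the range. A single granule cell, with 69318 reads of Mpo and 8265 of Ms4a3, gave nearly all of these reads.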

How the results depend on the processing

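The age difference of the 5 genes stayed short of the threshold under all 95 alternatives (19 for each gene), and 87 kept the sign. Ctsg turned to -0.0036 under DESeq2, -0.0066 with DESeq2's size factors in edgeR, -0.19 with the run (S047 or S059) as a covariate and -0.15 in the S059 runs alone. Leaving out 1 capture at a time gave log2 differences from -1.37 to 0.20 for Elane, -1.33 to 0.045 for Mpo, -1.94 to -0.56 for Prtn3, 0.03 to 0.96 for Ctsg and -0.58 to 0.40 for Ms4a3; Elane, Mpo and Ms4a3 turned positive without capture 17c (0.20, 0.045 and 0.40), and Ms4a3 without capture 36 (0.13). The cause was not tested.

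Counts of genes called, 5 higher and 5 lower at P120, were 0 and 1 with DESeq2's size factors, 17 and 5 without a low-count filter, 3 and 4 from cells with at least 50000 reads, 0 and 1 from thinned cells, 0 and 0 with the run as a covariate and 2 and 0 in the S059 runs alone. With the run as a covariate, 154 of 8346 genes had an unadjusted p under 0.05. Without 1 capture, 1 to 10 were called higher and 0 to 8 lower, with 10 higher without capture 21c and 8 lower without capture 17c.

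Shares of positive cells moved by less than 1 SD over captures in 69 of 75 alternatives at P60 and 50 of 55 at P120. Correlations moved by under 0.1 in 65 of 80, and none changed sign. The order of genes by number of cells depended on the cutoff: 17 of 30 ranks differed from those at 10 reads. At 1 read 177 cells counted as holding a granule gene, of which 66.7% had a cycling gene, against 23.5% of the other 34. Few captures per age and read counts without molecular identifiers limit all comparisons. No paired analysis was possible, since each capture held cells of a single age and nothing links a P60 capture to a P120 capture.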
